A study of Homo sapiens with 8 samples.

Results

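The genes described here encode the histone lysine and arginine methyltransferases, the enzymes that place methyl groups on histone tails and on the histone core. They were chosen by symbol from a list of 35 names, and all 35 were found among the 65962 genes of the table (5 are now also called NSD2, NSD3, KMT5A, KMT5B and KMT5C, for WHSC1, WHSC1L1, SETD8, SUV420H1 and SUV420H2). Only EHMT2 had more than 1 Ensembl identifier: of its 7, the one with the highest mean was kept, and the other 6 were listed at 0 FPKM. RNA-seq was performed on A673 cells, an established Ewing Sarcoma line that carries the EWS/FLI1 fusion, in 2 groups of 4 libraries each: cells exposed to 2 μM JIB-04, an inhibitor of Jumonji-domain histone demethylases, for 36 hours, and cells exposed to vehicle. No genetic change separates the groups, and both are of the same line. The comparison asks which of these enzymes change in mRNA level while enzymes that remove histone methylation are inhibited. Values are FPKM, that is fragments counted per transcript length and per mapped fragment in the library. Per the methods the treatments were carried out in quadruplicate, with DMSO as vehicle. The sources do not add how or when the replicate cultures were set up, so each p-value reflects no more than the spread among these libraries.

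Lysine methyltransferases mostly carry a SET domain, take the methyl group from S-adenosylmethionine and are selective for a residue, so they are read below by target residue. Methylation of H3K4, H3K36 and H3K79 is found on active genes, that of H3K9, H3K27 and H4K20 on silent or compacted chromatin, and a residue can be served by several enzymes with different roles. Arginine methyltransferases form a separate protein family and also modify many proteins other than histones. Most of the demethylases that JIB-04 inhibits act on H3K4, H3K9, H3K27 and H3K36.

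The libraries were alike within a group and differed between groups in a few general measures. FPKM summed to 1175407 to 1237186 in JIB-04 libraries and to 1346289 to 1370436 in vehicle libraries, and mitochondrially encoded mRNA was 3.60 to 4.33% of this total with JIB-04 and 9.60 to 10.2% with vehicle. Depth relative to vehicle replicate 1, estimated from the steps of low values, was 0.766 to 0.926 for JIB-04 and 0.822 to 0.954 for the other vehicle libraries, and the absolute depth is unknown. The 9 Ewing Sarcoma markers, FLI1, EWSR1, CD99, NKX2-2, NR0B1, STEAP1, CCND1, PRKCB and LIPI, were present in all libraries, with sums of 2260 to 2694 FPKM with JIB-04 and 3496 to 3739 FPKM with vehicle. CD99 and CCND1 made up most of these sums, and the markers went both ways: 6 passed the test as lower, FLI1 (log2 fold change 0.24) and LIPI (0.36) as higher, and NR0B1 did not pass. Markers of leukocytes, endothelium and muscle summed to at most 3.61 FPKM in any JIB-04 library and 0.997 FPKM in any vehicle library, and ITGAM, at 2.39 FPKM with JIB-04 and 0.295 FPKM with vehicle, passed as higher (adjusted p = 3.67e-05 by limma). Of the 4 epithelial markers KRT8 was higher (71.5 FPKM with JIB-04 and 23.2 FPKM with vehicle) and KRT18 lower (243 FPKM with JIB-04 and 302 FPKM with vehicle), and EPCAM and CDH1 were below 1 FPKM on average. The proliferation markers MKI67, PCNA and TOP2A summed to 557 to 599 FPKM with JIB-04 and 789 to 888 FPKM with vehicle, and all 3 passed the test as lower. In bulk samples fewer cells of a kind and less RNA per cell cannot be told apart, and the part of these differences in the results below was not tested.

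All 35 methyltransferase genes were expressed above the filter of 1 FPKM on the mean of the 8 libraries. By limma on log2(FPKM + 0.5), with p-values adjusted over all 17460 genes tested, 9 of the 35 were higher with JIB-04, 20 were lower and 6 did not pass the threshold of 0.05. The background was large: 72.2% of all genes tested passed in either direction, 34.2% as higher and 38% as lower. Against this, 82.9% of the methyltransferases passed, 25.7% as higher and 57.1% as lower. At 2-fold or more, 2 of the 35 were higher, SETDB2 and SUV420H1, where 13.1% of all genes were, and 7 were lower, EHMT2, NSD1, PRMT6, SETD1B, SMYD2, PRMT1 and WHSC1, where 11.8% of all genes were. The JIB-04 and vehicle libraries did not overlap for 28 of the 35, and for 67.3% of all genes. The median log2 fold change was -0.30 over the 35 genes and -0.07 over all genes tested. When each library was rescaled to the same total (TPM), the median of all genes moved by 0.15 to 0.08, 40.4% of all genes were then higher and 31.1% lower, and of the methyltransferases 11 were higher and 17 lower. The falls of SETD1B, SMYD2, PRMT1 and WHSC1 were then less than 2-fold (log2 fold changes of -0.95, -0.91, -0.91 and -0.91). PRDM2 then rose by more than 2-fold (1.14), and EHMT2, NSD1, PRMT6, SETDB2 and SUV420H1 stayed past it. The set of genes past 2-fold thus depends on library scaling. The calls of 23 members, 7 higher and 16 lower, held in every alternative that tested them, and those of KMT2A, SETD1A, SETDB1, EZH1, SETD2 and SUV420H2 were lost in at least 1.

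**Figure D1:**
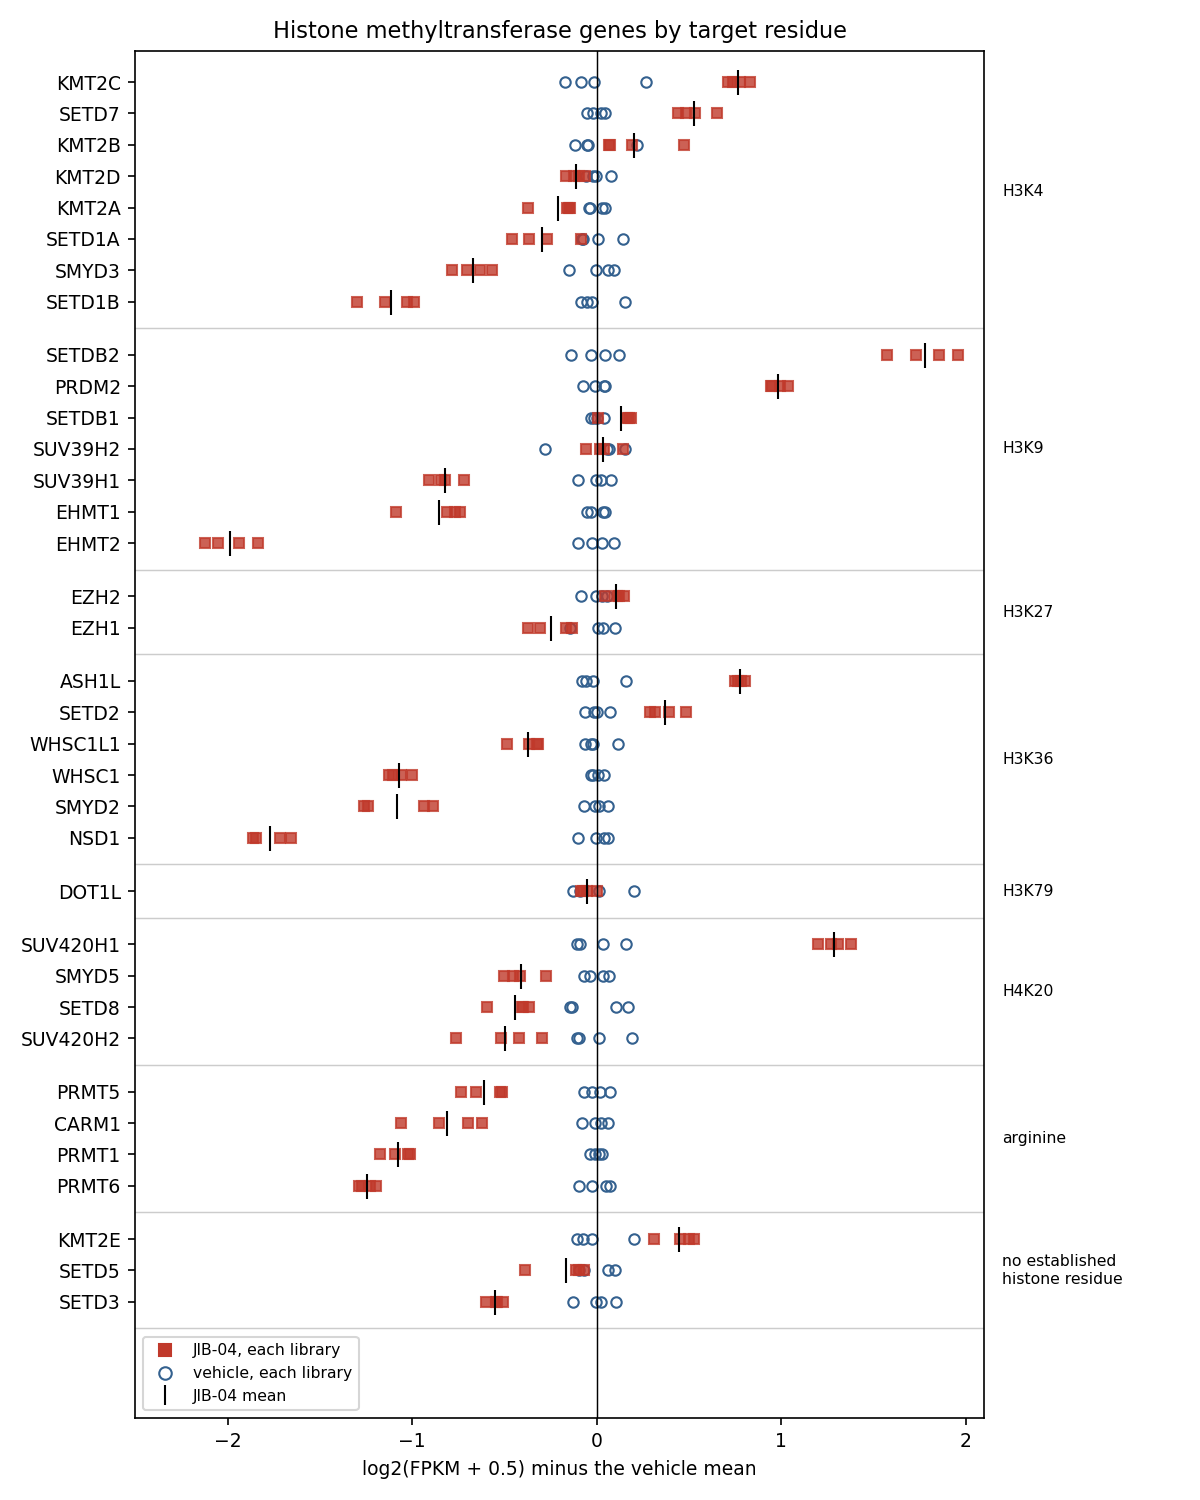
Level of each of the 35 methyltransferase genes in each library, as log2(FPKM + 0.5) minus the mean of the 4 vehicle libraries (horizontal axis), grouped by target residue. Filled squares are JIB-04 libraries, open circles vehicle libraries, and the vertical tick is the JIB-04 mean. All 4 arginine methyltransferases lie left of zero in every JIB-04 library, while each lysine class with more than 2 genes holds members on both sides, the outermost being EHMT2 at -1.99 and SETDB2 at 1.78.

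The promoters were searched for short motifs. RefSeq (GRCh38.p14) gave a promoter of 300 bases, 250 before and 50 after 1 annotated start, for 32 of the 35 genes, with none for SETD1B, DOT1L and WHSC1L1. The promoters of EHMT2 and NSD1, the genes with the largest falls, are shown because each holds 1 E-box, CACGTG (a palindrome, so the same on both strands), close to its start, 30 bases before it in EHMT2 and 27 bases before it in NSD1. Those of SETDB2 and SUV420H1, the genes with the largest rises, are shown beside them and hold none. The E-box was added to the search after its matches had been seen, so this contrast is a description and tests nothing. Capitals mark the E-box, and all run 5′ to 3′ on the coding strand of the gene: EHMT2 from chr6:31897649-31897948, minus strand, NSD1 from chr5:177131548-177131847, plus strand, SETDB2 from chr13:49444024-49444323, plus strand, and SUV420H1 from chr11:68213599-68213898, minus strand.
EHMT2: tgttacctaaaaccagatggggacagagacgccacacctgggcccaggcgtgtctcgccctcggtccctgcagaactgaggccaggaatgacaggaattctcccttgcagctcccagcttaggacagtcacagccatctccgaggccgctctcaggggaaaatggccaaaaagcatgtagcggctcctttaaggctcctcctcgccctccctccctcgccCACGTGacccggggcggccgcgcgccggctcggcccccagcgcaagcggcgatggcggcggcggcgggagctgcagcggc
NSD1: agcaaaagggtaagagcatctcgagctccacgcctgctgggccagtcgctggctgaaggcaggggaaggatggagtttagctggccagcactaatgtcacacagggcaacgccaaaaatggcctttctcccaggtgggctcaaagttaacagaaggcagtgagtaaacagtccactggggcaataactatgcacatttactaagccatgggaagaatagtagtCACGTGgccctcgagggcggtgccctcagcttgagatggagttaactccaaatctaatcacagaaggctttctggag
SETDB2: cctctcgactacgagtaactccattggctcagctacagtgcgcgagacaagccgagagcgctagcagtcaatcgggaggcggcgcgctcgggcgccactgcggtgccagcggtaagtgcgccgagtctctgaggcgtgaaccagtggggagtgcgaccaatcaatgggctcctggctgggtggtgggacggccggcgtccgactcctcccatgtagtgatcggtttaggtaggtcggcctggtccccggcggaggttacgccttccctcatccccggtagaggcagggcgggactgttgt
SUV420H1: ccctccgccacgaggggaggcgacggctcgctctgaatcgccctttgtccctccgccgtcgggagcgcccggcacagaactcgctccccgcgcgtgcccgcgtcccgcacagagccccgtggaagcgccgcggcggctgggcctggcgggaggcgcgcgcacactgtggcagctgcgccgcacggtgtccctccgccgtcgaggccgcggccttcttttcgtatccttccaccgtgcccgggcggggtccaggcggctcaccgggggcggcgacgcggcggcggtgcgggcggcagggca

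An E-box was found in 4 of the 32 promoters and in 7.26% of all 35116 promoters of this length in the RefSeq table. By call, 2 of 18 lower genes, 1 of 9 higher genes and 1 of 5 genes not past the test held it. The other members that held 1 were KMT2D and SETDB1, whose levels differed little between groups (log2 fold changes of -0.11 and 0.13). The 40 bases around the motif are shown to compare its flanks with those of EHMT2 and NSD1, for KMT2D from chr12:49060893-49060932, minus strand, 121 bases before the start, and for SETDB1 from chr1:150926198-150926237, plus strand, 48 bases before it.
KMT2D: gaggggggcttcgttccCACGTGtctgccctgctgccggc
SETDB1: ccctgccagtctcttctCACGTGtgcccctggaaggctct
The start that RefSeq gives lies 11 bases from the GENCODE start of the gene for EHMT2 and at the same base for SETDB1, but 1227 bases from it for NSD1 and 1020 bases from it for KMT2D. Which start A673 cells use was not examined. The other motifs searched on both strands were the HIF core ACGTG, which also matches within the E-box (6 of 32 members, 21.4% of all promoters), the E2F motif TTCCCGC (1 of 32, WHSC1, and 6.55%), the NF-Y motif CCAAT (11 of 32 and 34.6%), the NRF1 motif GCGCANGCG (7 of 32 and 7.52%) and the ATF4 motif TGATGNAA (0 of 32 and 3.62%). These are matches of letters in 1 window per gene, and binding was not measured.

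The H3K4 methyltransferases moved in both directions. SETD1B, a catalytic subunit of the COMPASS complexes that place most H3K4 trimethylation (gene at chr12:121804180-121832584, plus strand), had 5.70, 5.54, 4.50 and 5.06 FPKM in JIB-04 libraries, against 13.2, 11.1, 11.4 and 11.6 FPKM in vehicle libraries. Every JIB-04 value lay below every vehicle value, and the mean was 2.28-fold lower (log2 fold change of -1.12, SE 0.095, adjusted p = 4.61e-06 by limma). Its paralog SETD1A fell less, with means of 13.0 ± 1.53 FPKM with JIB-04 and 16.1 ± 1.20 FPKM with vehicle (SD, n = 4 each; log2 fold change of -0.30, SE 0.093, adjusted p = 0.0171 by limma), and this call was lost under TPM and turned to 0.08 when the dependence of fold changes on GC content was removed.

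KMT2C and KMT2D, which place H3K4 monomethylation at enhancers, differed from each other. KMT2C rose, with 33.3 ± 1.21 FPKM with JIB-04 and 19.5 ± 2.73 FPKM with vehicle (SD, n = 4 each; log2 fold change of 0.77, SE 0.091, adjusted p = 4.86e-05 by limma). KMT2D, the more abundant of the pair, had 70.6 FPKM with JIB-04 and 76.3 FPKM with vehicle and missed the threshold (adjusted p = 0.0528 by limma, log2 fold change -0.11, 95% interval -0.22 to -0.01), although the libraries did not overlap. The per-gene analysis of variance called KMT2D lower (adjusted p = 0.0360), as did limma under quantile scaling (adjusted p = 0.0404). It was also called lower without vehicle replicate 4 (adjusted p = 0.0345) or JIB-04 replicate 1 (0.0495), whereas its value was 0.05 under TPM and 0.25 with the GC trend removed, called higher (adjusted p = 1.28e-04 by limma), and -0.40 with the length trend removed, called lower (adjusted p = 6.14e-04 by limma). KMT2A, the gene rearranged in MLL leukaemia, was slightly lower at 36.7 FPKM with JIB-04 and 42.4 FPKM with vehicle (log2 fold change of -0.21, SE 0.063, adjusted p = 0.0144 by limma), a call lost under TPM. KMT2B had 24.0 ± 3.37 FPKM with JIB-04 and 20.8 ± 2.30 FPKM with vehicle (SD, n = 4 each) and did not pass (adjusted p = 0.125 by limma), with a 95% interval of -0.05 to 0.45 on the log2 scale. It was called higher under TPM (0.36 on the log2 scale, adjusted p = 0.0132) and without vehicle replicate 1 (0.27, adjusted p = 0.0437). With the GC trend removed it was at 0.67 (adjusted p = 1.49e-04 by limma), and with the length trend removed at -0.05 (adjusted p = 0.724 by limma). SETD7, an H3K4 monomethyltransferase that also acts on other proteins, rose to 55.8 FPKM with JIB-04, against 38.5 FPKM with vehicle (log2 fold change 0.53, adjusted p = 2.33e-05). SMYD3 fell to 40.4 FPKM with JIB-04, against 64.7 FPKM with vehicle (log2 fold change -0.67, adjusted p = 1.87e-05).

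Of the 13 shared and specific subunits of the COMPASS complexes, which hold the KMT2 and SETD1 enzymes and raise their activity, 3 were higher, 9 lower and 1 did not pass, with a median log2 fold change of -0.33. Over all genes tested, 34.2% were higher and 38% lower, with a median of -0.07. PAGR1, a subunit of the KMT2C and KMT2D complexes, had 20.7, 19.0, 16.1 and 17.5 FPKM with JIB-04, against 87.8, 80.4, 79.1 and 84.7 FPKM with vehicle, the largest fall of the list (log2 fold change -2.16, adjusted p = 2.41e-08). The core subunit RBBP5 moved the other way, with 93.2 FPKM with JIB-04 and 33.3 FPKM with vehicle (log2 fold change 1.47, adjusted p = 1.85e-08), as did HCFC2 (log2 fold change 1.60, adjusted p = 3.05e-07) and BOD1L1 (log2 fold change 1.37, adjusted p = 1.5e-06). The other core subunits WDR5, ASH2L and DPY30, named after their values were seen, fell, with log2 fold changes of -0.64, -0.33 and -0.41.

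The H3K9 class contained the largest fall and the largest rise of all 35 genes. EHMT2, also called G9a, forms a dimer with EHMT1 that places H3K9 monomethylation and dimethylation on euchromatin. EHMT2 (chr6:31879759-31897687, minus strand) had 24.9, 26.9, 23.1 and 21.9 FPKM in JIB-04 libraries, against 104, 95.5, 99.2 and 90.5 FPKM in vehicle libraries. All JIB-04 values were below 27 FPKM and all vehicle values above 90 FPKM, a mean 4.02-fold lower (log2 fold change of -1.99, SE 0.073, adjusted p = 2.46e-08 by limma). In the order of the 35 mean levels it was the 25th with JIB-04 and the 6th with vehicle. EHMT1 (chr9:137618963-137870016, plus strand) had 42.1, 43.3, 34.7 and 44.1 FPKM with JIB-04, against 71.5, 72.6, 76.1 and 76.6 FPKM with vehicle. It fell without overlap but less than its partner (log2 fold change of -0.85, SE 0.077, adjusted p = 7.28e-06 by limma).

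SETDB2, a little studied relative of SETDB1 (chr13:49444374-49495003, plus strand), was the lowest of all 35 genes with vehicle. It had 6.23, 7.01, 8.30 and 7.68 FPKM in JIB-04 libraries, against 1.71, 1.55, 1.96 and 1.84 FPKM in vehicle libraries. The lowest JIB-04 value was above 3 times the highest vehicle value, the mean was 4.14-fold higher (log2 fold change of 1.78, SE 0.12, adjusted p = 7.41e-07 by limma), and the gene remained among the 3 lowest with JIB-04. SETDB1 (chr1:150926263-150964744, plus strand), which trimethylates H3K9 over retroelements, had 62.5, 55.9, 63.0 and 63.3 FPKM with JIB-04, against 57.3, 54.5, 55.8 and 55.1 FPKM with vehicle. It was just past the threshold (log2 fold change of 0.13, SE 0.052, adjusted p = 0.0433 by limma), the groups overlapped, and the call was lost when any of vehicle replicates 2, 3 and 4 or JIB-04 replicates 1, 3 and 4 was left out (adjusted p of 0.0768 to 0.108). CERS2, at 409 FPKM on average, overlaps SETDB1 on the opposite strand. The libraries were directional, so their reads keep the strand, and the sources used here do not state whether strand was used in counting. Such an opposite-strand neighbour of at least 1 FPKM was found for 12 of the 35 genes, among them WHSC1L1 (DDHD2, 82.7 FPKM), SETD5 (THUMPD3-AS1, 51.8 FPKM) and CARM1 (YIPF2, 28.4 FPKM).

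PRDM2, a zinc finger protein with a SET-related domain, rose to 57.7 ± 1.77 FPKM with JIB-04, against 29.0 ± 1.13 FPKM with vehicle (SD, n = 4 each; log2 fold change of 0.98, SE 0.049, adjusted p = 1.44e-07 by limma). The heterochromatin enzymes SUV39H1 and SUV39H2, which trimethylate H3K9 near centromeres, differed from each other. SUV39H1 fell, with 29.9 ± 1.63 FPKM with JIB-04 and 53.3 ± 2.74 FPKM with vehicle (SD, n = 4 each; log2 fold change of -0.82, SE 0.059, adjusted p = 1.45e-06 by limma). SUV39H2 had 70.1 ± 4.02 FPKM with JIB-04 and 68.7 ± 8.64 FPKM with vehicle (SD, n = 4 each), with overlapping groups (adjusted p = 0.737 by limma) and a 95% interval of -0.17 to 0.25 on the log2 scale. Of the 10 partners and readers of H3K9 methylation 2 were higher, 6 lower and 2 did not pass, with a median log2 fold change of -0.26. Over all genes tested, 34.2% were higher and 38% lower, with a median of -0.07. CBX5, which encodes the heterochromatin protein HP1 alpha, had 90.7 FPKM with JIB-04 and 177 FPKM with vehicle (log2 fold change -0.96, adjusted p = 2.88e-08). UHRF1, which reads H3K9 methylation on newly replicated DNA (log2 fold change -1.04, adjusted p = 3.7e-06), and CBX1, which encodes HP1 beta (log2 fold change -0.48, adjusted p = 6.33e-06), also fell. ZNF644, a partner of EHMT1 and EHMT2, rose (log2 fold change 0.84, adjusted p = 7.05e-05), as did the reader CDYL (log2 fold change 0.39, adjusted p = 0.00190).

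H3K27 is methylated by PRC2, whose catalytic subunit is EZH1 or EZH2. EZH2 was the third most abundant of the 35 genes in both groups, with 156 ± 4.58 FPKM with JIB-04 and 145 ± 6.11 FPKM with vehicle (SD, n = 4 each). It missed the threshold (log2 fold change 0.11, 95% interval 0.0077 to 0.20, adjusted p = 0.0517 by limma), and its call changed to higher in 9 of 23 alternatives. Among these were the per-gene analysis of variance (adjusted p = 0.0407) and, by limma, median-ratio scaling (adjusted p = 0.0279) and removal of the length trend (0.0247). It was also called higher under TPM (0.27 on the log2 scale, adjusted p = 1.85e-04 by limma). The same held without vehicle replicate 4 (adjusted p = 0.0336) or JIB-04 replicate 3 (0.0330), whereas with the GC trend removed its log2 fold change was -0.07 (adjusted p = 0.108 by limma). EZH1 (chr17:42700275-42745049, minus strand), the form known from non-dividing cells, had 12.8, 13.1, 11.0 and 11.6 FPKM with JIB-04, against 15.5, 14.5, 13.0 and 14.8 FPKM with vehicle. The highest JIB-04 value was above the lowest vehicle value (log2 fold change of -0.24, SE 0.082, adjusted p = 0.0236 by limma). The call was lost under TPM and without any of vehicle replicates 1, 2 and 4 and JIB-04 replicates 3 and 4 (adjusted p of 0.0519 to 0.0634). It was also lost with the GC trend removed (-0.15 on the log2 scale, adjusted p = 0.111 by limma) and with mitochondrial mRNA left out before rescaling (-0.16, adjusted p = 0.0860 by limma). The processed pseudogene EZH2P1 was listed at 84.0 FPKM with JIB-04 and 78.1 FPKM with vehicle, 53.9% of EZH2 in both groups, over an annotated length of 291 bases. FPKM are divided by length, and the longest EZH2 transcript has 3641 bases, so the copy's share of reads is smaller than its share of FPKM. How the counting divided reads between the copies is not stated, so the level of EZH2 is uncertain by an unknown amount. With the FPKM of the copy added, EZH2 was called higher (0.10 on the log2 scale, adjusted p = 0.0462 by limma). That sum gives the short copy more weight than its reads would.

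The 9 partners of EZH1 and EZH2 all passed the test, 5 as higher and 4 as lower, with a median log2 fold change of 0.23. Of all genes tested 72.2% passed, with a median of -0.07. JARID2, an accessory subunit that helps recruit PRC2, had 42.6, 41.4, 39.7 and 40.7 FPKM with JIB-04, against 16.4, 16.1, 15.9 and 15.5 FPKM with vehicle (log2 fold change 1.33, adjusted p = 2.54e-08). PHF19 and PHF1, both Polycomb-like subunits that bind H3K36 methylation, fell, to 24.3 FPKM with JIB-04 against 92.8 FPKM with vehicle for PHF19 (log2 fold change -1.91, adjusted p = 7.91e-08) and 31.8 FPKM with JIB-04 against 54.0 FPKM with vehicle for PHF1 (log2 fold change -0.76, adjusted p = 4.68e-07). MTF2, the other Polycomb-like subunit, named after its values were seen, moved the opposite way, with 129 FPKM with JIB-04 and 55.0 FPKM with vehicle (log2 fold change 1.23, adjusted p = 5.53e-07).

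H3K36 methyltransferases showed 4 falls and 2 rises among 6 genes, with no overlap between groups for any, as for 67.3% of all genes. NSD1 (chr5:177133025-177300215, plus strand), which places H3K36 dimethylation and is mutated in Sotos syndrome, had 10.6, 9.27, 10.2 and 9.19 FPKM in JIB-04 libraries, against 32.3, 35.7, 34.6 and 36.3 FPKM in vehicle libraries. The mean was 3.53-fold lower (log2 fold change of -1.77, SE 0.070, adjusted p = 3.68e-08 by limma). The processed pseudogene PRMT1P1 lies within NSD1 on the opposite strand and was listed at 32.7 FPKM with JIB-04 and 75.3 FPKM with vehicle (log2 fold change -1.19). WHSC1 (chr4:1871424-1982207, plus strand), the NSD family member translocated in multiple myeloma, had 70.6, 67.7, 64.8 and 65.8 FPKM with JIB-04, against 146, 139.6, 143 and 139 FPKM with vehicle. It was the most abundant gene of the class in both groups and 2.11-fold lower with JIB-04 (log2 fold change of -1.07, SE 0.042, adjusted p = 3.56e-08 by limma). The third of the family, WHSC1L1, fell less, with 51.2 FPKM with JIB-04 and 66.3 FPKM with vehicle (log2 fold change -0.37, adjusted p = 0.000308).

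SMYD2 (chr1:214281102-214337131, plus strand), which methylates H3K36 and several non-histone proteins, had 10.2, 10.4, 13.3 and 12.9 FPKM in JIB-04 libraries, against 23.9, 25.0, 25.4 and 26.2 FPKM in vehicle libraries, without overlap and 2.15-fold lower (log2 fold change of -1.08, SE 0.097, adjusted p = 6.56e-06 by limma). ASH1L and SETD2 rose. ASH1L, an H3K36 dimethyltransferase of the Trithorax group, had 48.7 ± 0.763 FPKM with JIB-04 and 28.3 ± 2.24 FPKM with vehicle (SD, n = 4 each; log2 fold change of 0.78, SE 0.061, adjusted p = 2.61e-06 by limma). SETD2, the enzyme responsible for most H3K36 trimethylation behind elongating polymerase, had 20.7 ± 1.29 FPKM with JIB-04 and 15.9 ± 0.629 FPKM with vehicle (SD, n = 4 each; log2 fold change of 0.37, SE 0.064, adjusted p = 0.000561 by limma), and this call was lost when the trend of fold change on transcript length was removed (0.13, adjusted p = 0.0593 by limma). Of 10 readers of H3K36 and H4K20 methylation 4 were higher, 4 lower and 2 did not pass, where 34.2% of all genes were higher and 38% lower. HDGFRP2, with a PWWP domain that binds methylated H3K36, had 23.8 FPKM with JIB-04 and 72.2 FPKM with vehicle (log2 fold change -1.59, adjusted p = 4.97e-07). IWS1, an elongation factor that works with SETD2, had 131 FPKM with JIB-04 and 69.6 FPKM with vehicle (log2 fold change 0.90, adjusted p = 1.69e-07), and MSL3, a chromodomain subunit of an H4 acetyltransferase complex, had 34.9 FPKM with JIB-04 and 18.8 FPKM with vehicle (log2 fold change 0.88, adjusted p = 4.87e-07).

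DOT1L (chr19:2164149-2232578, plus strand), the H3K79 methyltransferase and the only one of the 35 lysine and arginine enzymes placed in that class, had 29.7, 31.5, 30.0 and 30.3 FPKM in JIB-04 libraries, against 36.3, 29.6, 28.8 and 31.8 FPKM in vehicle libraries. The groups overlapped and the test was not passed (log2 fold change of -0.05, SE 0.075, adjusted p = 0.557 by limma), with a 95% interval of -0.22 to 0.12. With the GC trend removed DOT1L was called higher (0.35 on the log2 scale, adjusted p = 0.00107 by limma), and with the length trend removed it was called lower (-0.26, adjusted p = 0.0264 by limma). The genes AP3D1 and PLEKHJ1, at 137 and 78.5 FPKM on average, overlap DOT1L on the opposite strand. The 6 genes read beside DOT1L all passed the test, 5 as lower and 1 as higher, where 72.2% of all genes passed. They were not limited to subunits of a DOT1L complex. MLLT1, MLLT3, MLLT6, MLLT10 and AFF1 were lower, and AFF4 was higher. AFF4, the scaffold of the super elongation complex, had 163, 166, 180.2 and 160.2 FPKM with JIB-04, against 37.1, 38.3, 42.9 and 42.8 FPKM with vehicle (log2 fold change 2.04, adjusted p = 1.01e-08). MLLT6 (log2 fold change -1.21, adjusted p = 1.09e-05) and MLLT1 (log2 fold change -0.82, adjusted p = 3.57e-05), known as fusion partners of KMT2A in leukaemia, fell.

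Among the H4K20 enzymes SUV420H1 rose and the other 3 fell. SUV420H1 (chr11:68154863-68213828, minus strand), which converts H4K20 monomethylation to higher states, had 43.0, 39.8, 45.2 and 41.8 FPKM in JIB-04 libraries, against 16.0, 15.9, 17.5 and 19.2 FPKM in vehicle libraries. The lowest JIB-04 value was above 2 times the highest vehicle value (log2 fold change of 1.29, SE 0.074, adjusted p = 3.43e-07 by limma). SUV420H2 (chr19:55339853-55348120, plus strand), the paralog with the same activity, had 6.95, 6.33, 4.89 and 5.88 FPKM with JIB-04, against 9.92, 8.04, 7.98 and 8.72 FPKM with vehicle, and fell (log2 fold change of -0.50, SE 0.12, adjusted p = 0.00384 by limma). Its GC content was the highest of the members, and with the GC trend removed its log2 fold change was 0.11. SETD8, the H4K20 monomethyltransferase that cells need for division, fell to 24.0 FPKM with JIB-04, against 32.9 FPKM with vehicle (log2 fold change -0.44, adjusted p = 0.00163). SMYD5, also placed in this class, fell to 39.1 FPKM with JIB-04, against 52.1 FPKM with vehicle (log2 fold change -0.41, adjusted p = 0.000220).

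All 4 arginine methyltransferases among the 35 genes fell, where 38% of all genes did, and none overlapped between groups, as for 67.3% of all genes. Outside the 35, the family did not move as 1: PRMT2 and PRMT7 fell (log2 fold changes of -0.83 and -0.78), and PRMT9 rose without overlap (0.64, adjusted p = 2.64e-05 by limma). PRMT3 did not pass (adjusted p = 0.0608 by limma), and PRMT8 was below the filter. PRMT1 (chr19:49675786-49689029, plus strand), which carries out most asymmetric arginine dimethylation in cells, had 263, 265, 237 and 251 FPKM in JIB-04 libraries, against 547, 540.5, 532 and 521 FPKM in vehicle libraries, a mean 2.11-fold lower (log2 fold change of -1.08, SE 0.043, adjusted p = 3.8e-08 by limma). PRMT6 (chr1:107056679-107067636, plus strand), which methylates arginine on histone H3, had 24.6, 24.3, 25.4 and 26.0 FPKM with JIB-04, against 63.1, 56.2, 59.0 and 62.3 FPKM with vehicle, a mean 2.40-fold lower (log2 fold change of -1.25, SE 0.054, adjusted p = 6.11e-08 by limma). PRMT5, the main enzyme of symmetric dimethylation and the most abundant of the 35 genes in both groups, had 490.2 ± 35.9 FPKM with JIB-04 and 746 ± 32.0 FPKM with vehicle (SD, n = 4 each; log2 fold change of -0.61, SE 0.057, adjusted p = 8.71e-06 by limma). CARM1, a coactivator that methylates histone H3, had 53.1 ± 7.0 FPKM with JIB-04 and 92.8 ± 3.94 FPKM with vehicle (SD, n = 4 each; log2 fold change of -0.81, SE 0.090, adjusted p = 3.05e-05 by limma). The processed pseudogenes PRMT1P1 and PRMT5P1 were listed at 12.9% and 4.25% of the level of their parents with JIB-04 and at 14.1% and 4.19% with vehicle, and adding them changed no call of an arginine methyltransferase.

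Of 6 cofactors of these enzymes 2 were higher, 2 lower and 2 did not pass, where 34.2% of all genes were higher and 38% lower. WDR77, the obligate partner of PRMT5 in the methylosome, fell with it (113 FPKM with JIB-04 and 159 FPKM with vehicle, log2 fold change -0.49, adjusted p = 1.68e-05). CLNS1A, an adaptor that directs PRMT5 to spliceosomal proteins, fell too (log2 fold change -0.65, adjusted p = 8.04e-05). RIOK1, which competes with CLNS1A for PRMT5, rose instead, with 169 FPKM with JIB-04 and 79.4 FPKM with vehicle (log2 fold change 1.09, adjusted p = 1.61e-06). BTG1, a partner of PRMT1 and an antiproliferative gene, had 127, 130.0, 129 and 134 FPKM with JIB-04, against 22.5, 23.4, 25.1 and 17.4 FPKM with vehicle, the largest change in any of the lists (log2 fold change 2.54, adjusted p = 3.74e-08).

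The 3 genes without an established histone residue moved in different ways. SETD3 (chr14:99397746-99480889, minus strand), now known to methylate a histidine of actin, had 34.2, 33.4, 32.0 and 33.3 FPKM in JIB-04 libraries, against 44.7, 48.7, 49.6 and 52.6 FPKM in vehicle libraries, and fell without overlap (log2 fold change of -0.55, SE 0.058, adjusted p = 2.03e-05 by limma). KMT2E, whose SET domain has no known activity, rose to 33.4 FPKM with JIB-04, against 24.4 FPKM with vehicle (log2 fold change 0.45, adjusted p = 0.000779), and SRPK2 at 81.4 FPKM overlaps it on the opposite strand. SETD5 had 86.9 FPKM with JIB-04 and 97.4 FPKM with vehicle and did not pass (adjusted p = 0.0867 by limma, log2 fold change -0.17, 95% interval -0.35 to 0.01). With the length trend removed SETD5 was called lower (-0.39 on the log2 scale, adjusted p = 8.76e-04 by limma), and under TPM its log2 fold change was -0.003.

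Related enzymes, of the same residue except for SMYD2 (H3K36) and SMYD3 (H3K4), were also compared within each library, as the log2 ratio of FPKM + 0.5. Apart from the added 0.5, which weighs on low genes such as SETDB2, this ratio does not depend on how libraries were scaled, but it can depend on GC content. The shift is the difference of its group means, JIB-04 minus vehicle, and ratios of mean FPKM without the 0.5 are given beside the 3 shifts of at least 1. Of 10 pairs, 9 shifted with an exact two-sided permutation p of 0.0286, the smallest that 4 against 4 libraries allow, and an adjusted p of 0.0317 over the 10 pairs. The shift was 1.79 for SUV420H1 over SUV420H2, where the ratio of mean FPKM was 7.06 with JIB-04 and 1.98 with vehicle. It was -1.65 for SETDB1 over SETDB2, where the ratio of mean FPKM was 8.38 with JIB-04 and 31.5 with vehicle. With 0.1 added in place of 0.5 these shifts were 1.83 and -1.85, so their order depends on the constant added. It was 1.13 for EHMT1 over EHMT2, where the ratio of mean FPKM was 1.70 with JIB-04 and 0.763 with vehicle, so EHMT1 was the more abundant partner with JIB-04 and EHMT2 with vehicle. The other shifts were 0.88 for KMT2C over KMT2D, -0.86 for SUV39H1 over SUV39H2, 0.82 for SETD1A over SETD1B, -0.70 for WHSC1 over WHSC1L1, -0.41 for SMYD2 over SMYD3 and -0.35 for EZH1 over EZH2. KMT2A over KMT2B shifted by -0.41 with overlapping libraries (exact permutation p = 0.0571, adjusted p = 0.0571), and by -0.49 without vehicle replicate 1 (exact permutation p = 0.0286). The exact p became 0.0571 for SMYD2 over SMYD3 without any 1 of the 4 vehicle libraries (shifts of -0.45 to -0.34) and for EZH1 over EZH2 without JIB-04 replicate 3 or 4 (-0.33 each). Pair ratios were not recomputed with the GC trend removed. With it removed, log2 fold changes were 1.02 for SUV420H1 (40.7% GC) and 0.11 for SUV420H2 (66.1% GC), beside 1.29 and -0.50 as reported. They were -0.19 for KMT2A and 0.67 for KMT2B, beside -0.21 and 0.20. The first pair thus came closer and the second moved apart.

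**Figure D2:**
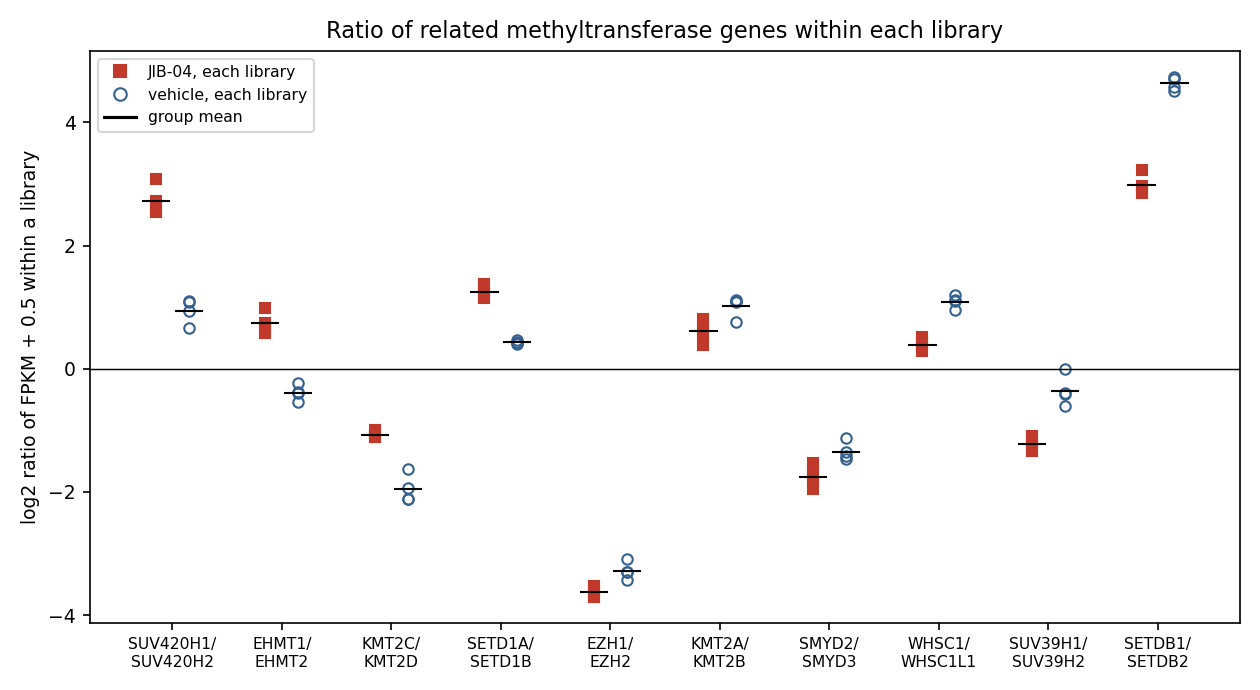
Log2 ratio of FPKM + 0.5 between 10 pairs of related methyltransferase genes within each library (vertical axis). Squares are JIB-04 libraries on the left of each pair, open circles vehicle libraries on its right, and lines are group means. JIB-04 and vehicle are apart for 9 pairs, and EHMT1/EHMT2 is the pair whose ratio lies above zero in all JIB-04 libraries and below zero in all vehicle libraries.

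The summed level by target residue, a description with no test, showed where the mRNA for these enzymes lay. All 35 genes summed to 2066 ± 58.3 FPKM with JIB-04 and 2889 ± 26.5 FPKM with vehicle (SD, n = 4 each), a ratio of 0.715. The 4 arginine methyltransferases made up 38.7 to 40.8% of that sum in JIB-04 libraries and 48.5 to 50.6% in vehicle libraries. Their sum was 822 ± 40.6 FPKM with JIB-04 and 1434 ± 41.1 FPKM with vehicle, a ratio of 0.573. The H3K36 class summed to 209 ± 5.39 FPKM with JIB-04 and 312 ± 6.66 FPKM with vehicle (0.671), and the H3K9 class to 291 ± 9.34 FPKM with JIB-04 and 379.8 ± 4.35 FPKM with vehicle (0.767). These 3 classes did not overlap between groups. The sums for H3K4 (0.962), H3K27 (1.05), H3K79 (0.961), H4K20 (1.01) and the genes without an established residue (0.900) overlapped between groups, although single genes of the H3K4 and H4K20 classes passed the test in both directions. These sums were not rescaled to the same library total, which was 1175407 to 1237186 FPKM with JIB-04 and 1346289 to 1370436 FPKM with vehicle. The ratios therefore depend on that scaling, and so does the overlap of groups. Relative to these totals, the H3K4, H3K27 and H4K20 sums were higher in every JIB-04 library than in every vehicle library. The arginine, H3K36 and H3K9 sums stayed lower in every JIB-04 library. FPKM are shares within a library, so neither RNA per cell nor enzyme amount is given by these sums.

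**Figure D3:**
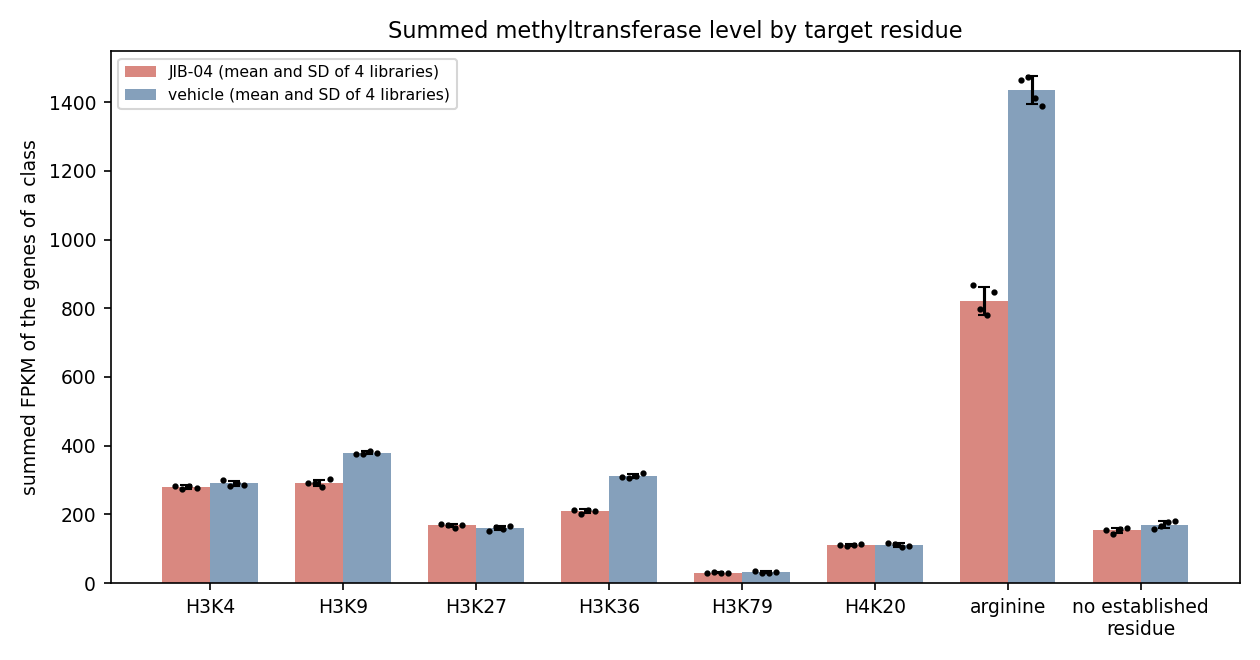
Summed FPKM of the methyltransferase genes of each target residue (vertical axis), with JIB-04 bars left of vehicle bars. Bars are means of 4 libraries with SD, and dots are single libraries. Sums are not rescaled to the same library total. The arginine class is the highest in both groups, at 822 FPKM with JIB-04 and 1434 FPKM with vehicle, and the H4K20 sums nearly coincide at 112 FPKM with JIB-04 and 111 FPKM with vehicle.

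The members that rose and fell also differed in transcript composition, which the choice of genes did not use. GC content of the longest GENCODE transcript had a median of 44.0% over the 9 higher genes (range 40.0 to 50.9%), 51.9% over the 20 lower genes (range 42.0 to 66.1%) and 47.7% over all genes tested. Median transcript length was 7365 bases for the higher genes, 3730 bases for the lower genes and 2720 bases for all genes tested. Across the 35 genes, which share the same 8 libraries, Spearman's rho of log2 fold change was -0.45 with GC content and 0.33 with length, beside -0.30 and 0.13 across all genes tested. With the trend on GC content removed, 12 members were higher and 17 lower, EHMT2 and NSD1 remained lower, SETDB2 and SUV420H1 remained higher, and 6 members changed sign: SETD1A and SUV420H2, whose calls were lost, KMT2D and DOT1L, which were then called higher, and EZH2 and SUV39H2 (-0.07 and -0.17 on the log2 scale), which passed neither way. The part of GC content and length in the results was not tested further.

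**Figure D4:**
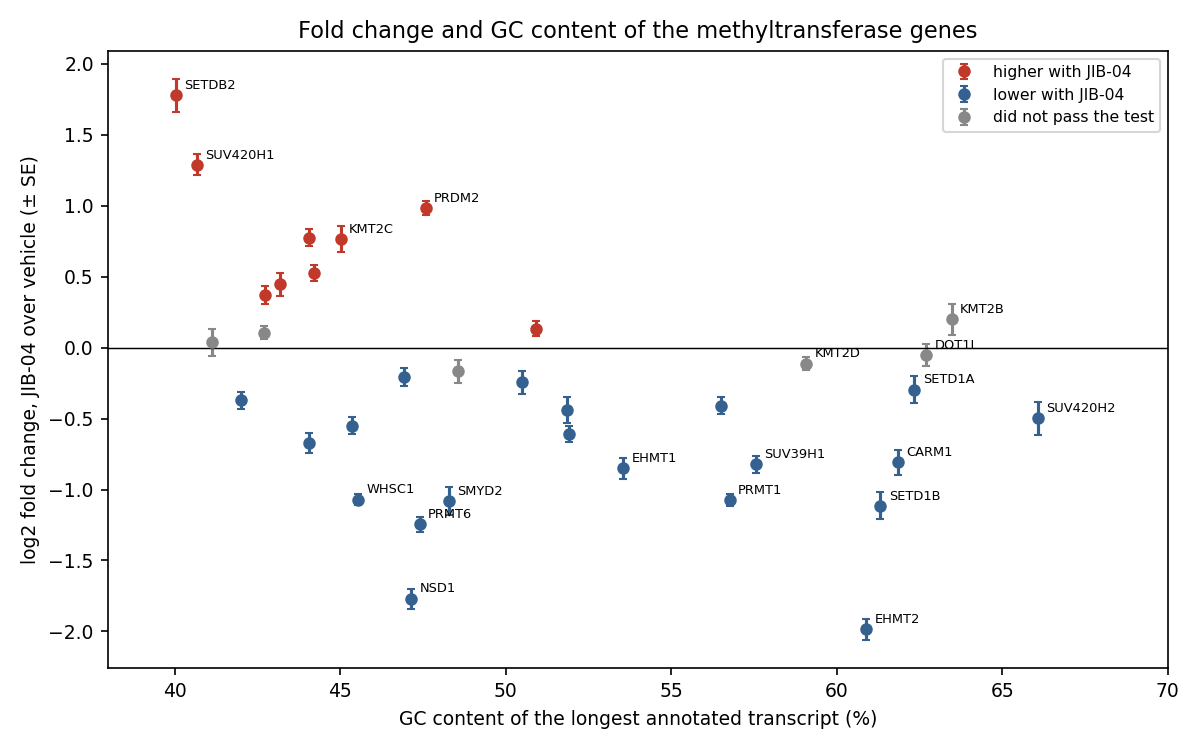
Log2 fold change, JIB-04 over vehicle, with SE (vertical axis), against the GC content of the longest annotated transcript in percent (horizontal axis) for the 35 genes. Colours give genes higher with JIB-04, lower with JIB-04 or not past the test. The 9 higher genes lie between 40.0 and 50.9% GC, while the lower genes span 42.0 to 66.1%.

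Genes that supply the methyl donor and other members of the wider enzyme families were read from the same fit. Of 11 genes of the S-adenosylmethionine cycle 10 were expressed above the filter, 3 higher, 5 lower and 2 not past the test. MAT2A, which makes S-adenosylmethionine, had 233, 235, 227 and 215 FPKM in JIB-04 libraries, against 379.6, 398, 387 and 379 FPKM in vehicle libraries (log2 fold change -0.76, adjusted p = 1.74e-07). AHCY, which clears the inhibitory product S-adenosylhomocysteine, had 322, 314, 290.5 and 313 FPKM with JIB-04, against 559.6, 569, 551 and 522 FPKM with vehicle (log2 fold change -0.83, adjusted p = 2.01e-07). Both fell without overlap. Of 17 further SET, PRDM and PRMT genes 12 were expressed above the filter, 4 higher, 6 lower and 2 not past the test. The most significant were SETD6 (log2 fold change -1.47, adjusted p = 6.47e-07), PRMT2 (log2 fold change -0.83, adjusted p = 8.61e-07) and PRDM4 (log2 fold change 0.67, adjusted p = 1.99e-06). Over all 76 genes of the 8 partner lists tested, 24 were higher, 41 lower and 11 did not pass. Their shares were 31.6% higher and 53.9% lower, with a median log2 fold change of -0.26. Over all genes tested, 34.2% were higher and 38% lower, with a median of -0.07.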

How the data were processed

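RNA-seq of A673 cells was analysed for 8 libraries, 4 with 2 μM JIB-04 for 36 hours and 4 with vehicle, grouped by the labels. The authors aligned reads to GRCh38 with GSNAP, used SAMtools, and calculated the deposited FPKM with Cufflinks. Their annotation is not stated, and the labels give 151 bp reads where the methods give 50 cycles. Of 66095 entries for 65975 identifiers, repeated entries of 117 identifiers were added up, 31 names turned into dates were restored and 13 genes with a placeholder value were left out.

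Genes averaging 1 FPKM or more were compared on log2(FPKM + 0.5), a scale that understates changes of low genes, by limma 3.58.1 in R 4.3.3 (lmFit, eBayes with trend), two-sided, with Benjamini-Hochberg adjustment over 17460 genes and a threshold of 0.05. The fit was also run on simulated data with independent noise and few changed genes. Most genes passed in the real data, so that run gives no error rate for them. Pair ratios were compared by exact permutation over 70 arrangements. GENCODE 29 gave positions, GC content and length. Python 3.11.15, pandas 2.3.3, scipy 1.17.1 and matplotlib 3.10.9 made the tables and figures.

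Every member is named. Values in every library are given for members changed at least 2-fold, for the smallest adjusted p of each residue and for pairs whose log2 ratio moved by at least 1, and up to 3 genes of each partner list with the smallest adjusted p are named, plus any that moved against the rest. Members and lists were chosen with earlier results of these data known, and the E-box was added after its matches had been seen. Alternatives were pseudocounts of 0.1 and 1, no filter or 5 FPKM, TPM, median-ratio and quantile scaling, rescaling without mitochondrial mRNA, a per-gene analysis of variance, a replicate block, removal of GC and length trends, summed identifiers, added pseudogene copies and leaving out each library. Same-numbered libraries did not deviate together (correlations of -0.058 to 0.0823), so numbers were not taken as pairs. Absolute depth is unknown, so precision rests on the spread between libraries.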

Additional observations from a re-analysis of the deposited data

Results flagged for a closer look

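In 3 of the 70 sets of 4 values examined (35 genes in 2 groups), 1 library stood far from the other 3, where chance alone gives about 1 set in 20. All 3 were JIB-04 replicate 2 at the low end. KMT2A was at 32.6 FPKM in that library and at 37.8 to 38.3 FPKM in the other JIB-04 libraries. SETDB1 was at 55.9 FPKM there and at 62.5 to 63.3 FPKM in the others. SETD5 was at 74.3 FPKM there and at 89.8 to 92.6 FPKM in the others. Without that library the calls of KMT2A, SETDB1 and SETD5 stayed on the same side of the threshold. Its relative depth, 0.766 of vehicle replicate 1, was the lowest of the 8 libraries, and the part of depth in these values was not tested.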

How the results depend on the processing

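The median log2 fold change of the 35 genes, -0.30 as reported, was -0.14 under TPM, -0.22 with mitochondrial mRNA left out before rescaling, -0.17 with the GC trend removed, with or without the replicate block, and -0.41 with the length trend removed, and it ranged from -0.33 to -0.24 when a library was left out. Removal of the GC trend, with or without the block, reversed KMT2D (0.25), SETD1A (0.0785), DOT1L (0.35) and SUV420H2 (0.11), and the cause was not tested. EZH2 and SUV39H2 changed sign there too, passing neither before nor after. Counts of members stayed between 8 and 12 higher and between 17 and 23 lower over the alternatives. With the replicate number as a block, 5900 genes were higher and 6618 lower, and 9 members were higher and 21 lower. The replicate block brought KMT2B (adjusted p = 0.0227 by limma) and SETD5 (0.0470) past the threshold and lost SETDB1 (0.0567), and it changed no other member's call. Only 1 of the 4 JIB-04 libraries correlated best with its own number. Under a filter of 5 FPKM SETDB2 was not tested. The exact p of 2 pairs reached 0.0571 in some fits that left out a library. Pair ratios were recomputed only with the other pseudocounts and with a library left out. Over these, shifts ranged from -0.49 to -0.34 for SMYD2 over SMYD3 and from -0.40 to -0.29 for EZH1 over EZH2. Absolute depth is unknown, and the genes at the low end, SETDB2, SETD1B and SUV420H2, were below 15 FPKM in every library.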
